A study of Homo sapiens with 3 samples.

Results

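The EGR, FOS and JUN genes encode transcription factors of the immediate early response. The 10 members were *EGR1*, *EGR2* and *EGR3*, the FOS family genes *FOS*, *FOSB*, *FOSL1* and *FOSL2*, and the JUN family genes *JUN*, *JUNB* and *JUND*, out of 18216 protein-coding genes read by the arrays. They were selected on earlier results of the same arrays, so their values are given as a description with no test. Expression was measured in A549 cells, an established line from a human lung adenocarcinoma, on 3 Agilent arrays of 1 colour (Cy3). The groups were mock cells, which were given the Lipofectamine RNAiMAX reagent and no small RNA, cells transfected with *miR-139-5p* and cells transfected with *miR-139-3p*, with 1 array each. Mock cells thus lacked a small RNA of any kind, and in a comparison with mock the effect of the miRNA and that of receiving a small RNA cannot be told apart. Slide 1 carried mock and *miR-139-5p*, and slide 2 carried *miR-139-3p*, for which slide and transfection cannot be told apart.

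Immediate early genes are transcribed within minutes of a growth factor, cytokine or stress signal, without the need for new protein synthesis. ERK and other MAP kinases act on factors such as ELK1, SRF and CREB1 at their promoters, and their mRNAs are usually short-lived. FOS and JUN proteins pair through leucine zippers to form AP-1, which binds DNA as a dimer, whereas EGR proteins bind GC-rich sites through zinc fingers. In epithelial cells and in lung cancer these factors are known as regulators of proliferation, stress responses and invasion.

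The transfected miRNAs are the 2 arms of 1 hairpin, and their sequences are shown because the transfected cells were given one or the other. In RefSeq (GRCh38.p14) *miR-139-5p* lies on the minus strand at chr11:72615102-72615124 and *miR-139-3p* on the same strand at chr11:72615066-72615088. Each is printed 5′ to 3′ with the seed, bases 2 to 8, in capitals.
miR-139-5p: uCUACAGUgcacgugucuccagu
miR-139-3p: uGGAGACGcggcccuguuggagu
The seeds differ, so the miRNAs belong to different seed groups.

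Each member was read by 1 probe with 1 spot on each array. The signal is the spot intensity after background subtraction, in arbitrary units, and it depends on the probe, so levels were compared between arrays and not between genes. Log2 fold changes were taken after dividing each array by the 75th percentile of its signal, which was 93.6 for mock, 88.9 after *miR-139-5p* and 81.0 after *miR-139-3p*. The error printed with a signal is the one that Feature Extraction gave for the spot. That of a log2 fold change was computed from the errors of both spots, taken as independent. It was 0.20 to 0.22 on the log2 scale for the members measured on both arrays of a comparison, and it holds no spread between cultures. Over genes with several probes, these differed from each other by a median SD of 0.15 (*miR-139-5p* against mock), 0.28 (*miR-139-3p* against mock) and 0.26 (between the miRNAs). The number of arrays limits the precision. Of the members, 7 (*EGR1*, *FOS*, *FOSL1*, *FOSL2*, *JUN*, *JUNB* and *JUND*) were well above background on all 3 arrays, *FOSB* was so on the *miR-139-3p* array only, and *EGR2* and *EGR3* on none.

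*EGR1*, a zinc finger factor induced by growth factors and stress, was higher on the arrays of both transfected cells than on the mock array. Its signal was 17.4 ± 2.02 in mock, 100.1 ± 10.1 after *miR-139-5p* and 94.4 ± 9.49 after *miR-139-3p*. The mock signal was the low one, and the signals with both miRNAs lay within their errors of each other. With *miR-139-5p* the log2 fold change of *EGR1* was 2.60 ± 0.22 against mock, which is 6.05-fold. With *miR-139-3p* it was 2.65 ± 0.22, which is 6.26-fold. These values share the mock array and rest on the same dim spot there. With normexp background correction, which adds 50 to every signal and so pulls dim values toward each other, they were 1.15 and 1.17. Between the miRNAs, *EGR1* differed by 0.05 ± 0.21, less than its error, and this small difference turned negative without scaling, at -0.08. With the percentile over probes detected on all 3 arrays it was 0.211, just beyond the error of 0.205.

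From the highest log2 fold change down, *EGR1* ranked 2 among 12673 protein-coding genes measured on both arrays with *miR-139-5p* against mock, and 47 among 12672 with *miR-139-3p* against mock. *EGR2* and *EGR3*, zinc finger factors of the same family, were not well above background on any array and were given no fold change. The *EGR2* spot read 1.06 in mock, 1.27 with *miR-139-5p*, where its background was marked as an outlier, and 5.27 with *miR-139-3p*. The *EGR3* spot read 1.07, 1.24 and 1.03 in the same order.

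**Figure D1:**
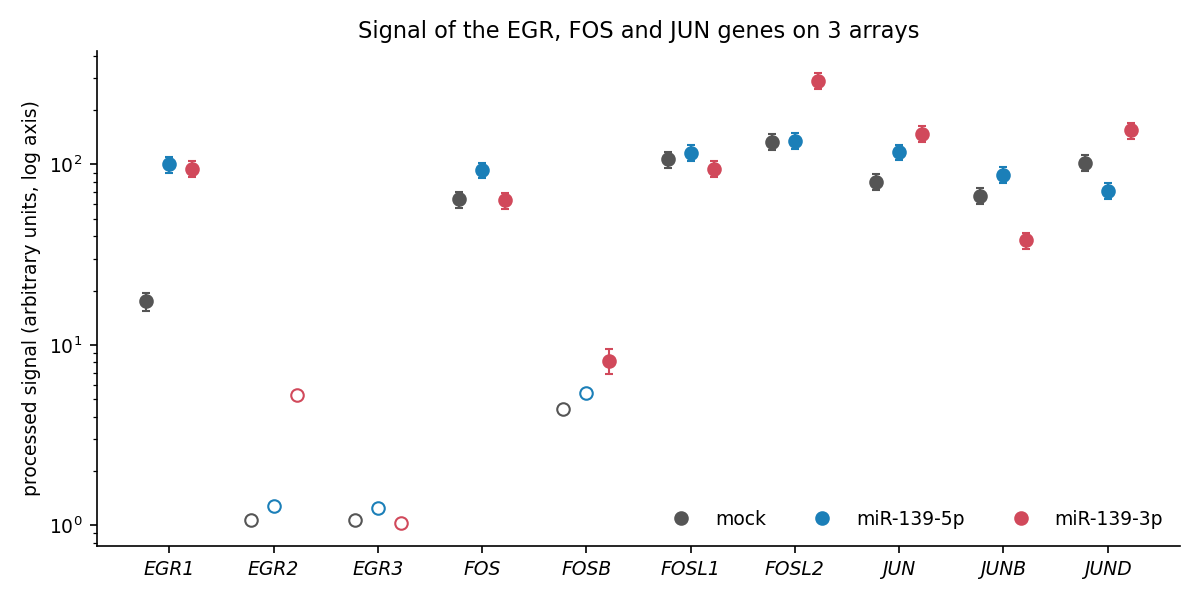
Processed signal (arbitrary units, log axis) of each of the 10 genes on the mock (grey), *miR-139-5p* (blue) and *miR-139-3p* (red) arrays, with 1 spot per point and bars for the error given by Feature Extraction. Filled points were well above background and open points, drawn without bars, were not. *EGR1* lies at 17.4 in mock and at 100.1 and 94.4 with the miRNAs, and the points of *EGR2* and *EGR3* are all open.

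Among the FOS family, *FOSL2* was higher with *miR-139-3p*, and *FOS* was higher with *miR-139-5p* by less. *FOS*, the founding partner of JUN in AP-1, had a signal of 64.0 ± 6.48 in mock, 93.1 ± 9.38 after *miR-139-5p* and 63.3 ± 6.40 after *miR-139-3p*. With *miR-139-5p* the log2 fold change was 0.61 ± 0.21 against mock, or 0.37 with normexp. With *miR-139-3p* it was 0.19 ± 0.21, within the error, and -0.02 without scaling, but beyond the error at 0.27 with spike-in scaling and at 0.33 with the percentile over detected probes. *FOS* was highest with *miR-139-5p*, and between the miRNAs it was at -0.42 ± 0.21, or -0.56 without scaling.

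*FOSL2*, which encodes the FOS-related protein FRA2, had a signal of 133.9 ± 13.4 in mock, 135.7 ± 13.6 after *miR-139-5p* and 291.4 ± 29.1 after *miR-139-3p*. The *miR-139-3p* array was the high one, and the other two did not differ beyond their errors. The log2 fold change of *FOSL2* was 1.33 ± 0.20 with *miR-139-3p* against mock, which is 2.52-fold, and 1.24 ± 0.20 against *miR-139-5p*. With *miR-139-5p* against mock it was 0.09 ± 0.20, and -0.0004 with normexp. With spike-in scaling it was 0.22, beyond the error. *FOSL1*, which encodes FRA1, had signals of 106.6 ± 10.7, 115.8 ± 11.6 and 94.6 ± 9.51 in mock and with *miR-139-5p* and *miR-139-3p*. Its log2 fold changes against mock of 0.19 ± 0.21 and 0.04 ± 0.21 were within the error. The former was 0.32 with spike-in scaling, beyond the error, and 0.04 with normexp, and the latter was -0.17 without scaling.

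*FOSB*, whose protein pairs with JUN proteins as FOS does, had a value only through the *miR-139-3p* array. Its spot read 4.38 ± 1.16 in mock, 5.39 ± 1.35 after *miR-139-5p* and 8.18 ± 1.31 after *miR-139-3p*. Some genes were well above background on 1 array only. There the brighter array was set against the dim spot or the dim array's lowest signal well above background, whichever was higher. This gives a bound where the dim spot was the lower, and the ratio of the spots otherwise. By this bound *FOSB* was at least 1.96-fold higher with *miR-139-3p* than in mock, or 0.97 on the log2 scale. Against *miR-139-5p*, whose *FOSB* spot read above the lowest such signal of that array, the same rule gave the scaled ratio of the spots themselves, 0.74 on the log2 scale, and not a floor. It was 0.16 with quantile normalization, 0.15 with the deposited log2 values and 0.13 with normexp. The bound against mock was 0.43 on the log2 scale with quantile normalization, 0.42 with the deposited log2 values and 0.27 with normexp.

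The 3 JUN family genes took different orders over the arrays. *JUN*, which encodes the main DNA-binding partner of FOS proteins, had a signal of 80.1 ± 8.07 in mock, 117.0 ± 11.7 after *miR-139-5p* and 148.2 ± 14.8 after *miR-139-3p*. With *miR-139-5p* the log2 fold change was 0.62 ± 0.21 against mock, or 0.48 with normexp, and it was 1.10 ± 0.20 with *miR-139-3p*. *JUN* was lowest in mock and highest with *miR-139-3p*. Between the miRNAs it was at 0.48 ± 0.20, and past 0.5 with the percentile over detected probes (0.64), quantile normalization (0.59) and the deposited log2 values (0.52).

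*JUNB*, an immediate early gene whose protein activates transcription less than JUN in many settings, had a signal of 67.1 ± 6.79 in mock, 87.5 ± 8.83 after *miR-139-5p* and 38.0 ± 3.92 after *miR-139-3p*. The *miR-139-3p* array was the low one. The log2 fold change of *JUNB* was -0.61 ± 0.21 with *miR-139-3p* against mock and -1.07 ± 0.21 against *miR-139-5p*. With *miR-139-5p* against mock it was 0.46 ± 0.21, or 0.58 with spike-in scaling. The value of -0.61 was -0.47 when only probes detected on every array entered the percentile and -0.33 with normexp.

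*JUND*, the JUN gene that is expressed most steadily in resting cells, was the reverse of *JUNB*. Its signal was 102.4 ± 10.3 in mock, 71.5 ± 7.28 after *miR-139-5p* and 154.6 ± 15.5 after *miR-139-3p*. The log2 fold change of *JUND* was -0.44 ± 0.21 with *miR-139-5p* against mock, or -0.52 without scaling. It was 0.80 ± 0.20 with *miR-139-3p* against mock, or 0.48 with normexp, and 1.25 ± 0.21 against *miR-139-5p*.

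**Figure D2:**
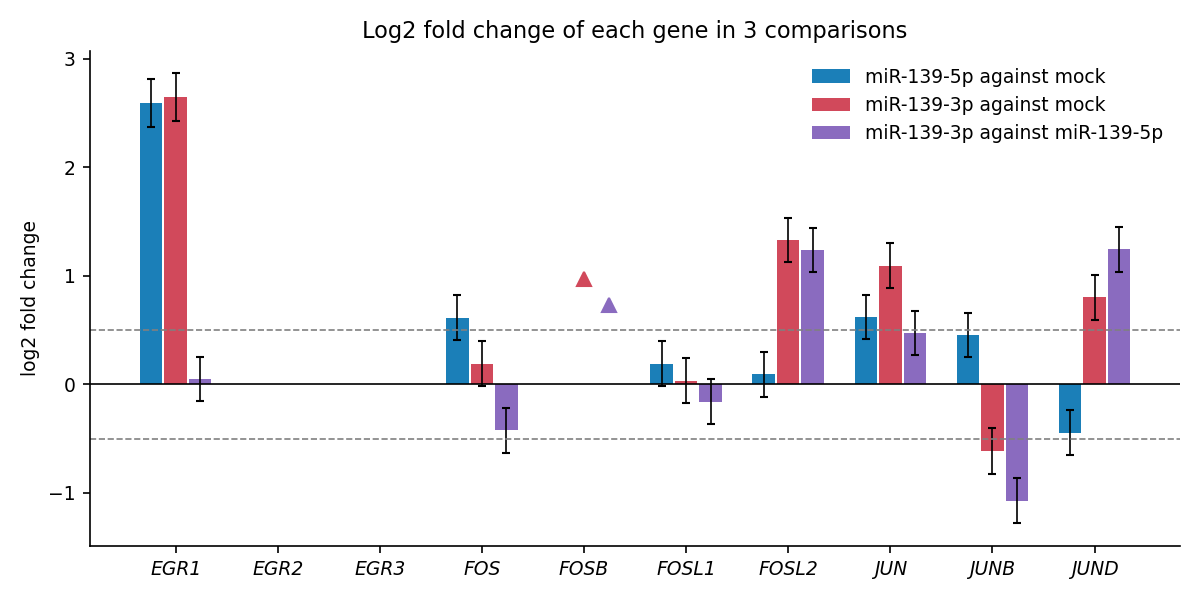
Log2 fold change (vertical axis) of each of the 10 genes with *miR-139-5p* against mock (blue), *miR-139-3p* against mock (red) and *miR-139-3p* against *miR-139-5p* (purple). Bars are genes measured on both arrays, with the error computed from the Feature Extraction errors of both spots. Triangles are values of *FOSB* set against an array where it was dim, and dashed lines mark 0.5 and -0.5. *EGR1* stands at 2.60 and 2.65 against mock and 0.05 between the miRNAs, while *JUNB* and *JUND* lie on opposite sides of 0 in each comparison.

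Over the 10 genes, 3 had a log2 fold change above 0.5 with *miR-139-5p* against mock (*EGR1*, *FOS* and *JUN*), 0 were below -0.5, 4 lay between and 3 had no value. Among all 13195 protein-coding genes with a value in that comparison, 10.6% were above 0.5 and 12.2% below -0.5. The median of the members with a value was 0.46, against -0.006 for all protein-coding genes with a value. With *miR-139-3p* against mock, 5 members were above 0.5 (*EGR1*, *FOSL2*, *JUN*, *JUND* and, as a bound, *FOSB*), *JUNB* was below -0.5, 2 lay between and 2 had no value. The shares among 13551 protein-coding genes were 23.0% above and 30.5% below. The members' median was 0.89, or 0.80 without the bound, against -0.13 for all these genes. *FOSB* is counted here because it passed the filter on the array where it was high, and since the members were selected on these arrays nothing is read from the counts.

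Between the miRNAs, 3 members were above 0.5 with *miR-139-3p* against *miR-139-5p* (*FOSL2*, *JUND* and *FOSB*), *JUNB* was below -0.5, 4 lay between and 2 had no value. *FOSB* rests on a dim *miR-139-5p* spot and was under 0.5 with quantile normalization, the deposited log2 values and normexp. Of 13449 protein-coding genes, 23.0% were above 0.5 and 30.6% below -0.5. The median of the members was 0.26, and 0.05 without *FOSB*, against -0.11 for all these genes.

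The balance of higher and lower genes moved with the scaling, which shifts every gene of a comparison alike. Of the protein-coding genes past the threshold with *miR-139-5p* against mock, 46.6% were higher, against 33.9% without scaling and 67.8% when scaled to E1A spike-in RNA. With *miR-139-3p* against mock 43.0% were higher, against 53.2% with the percentile over detected probes and 28.8% without scaling. Between the miRNAs the share was 42.9%, or 55.0% with the percentile over detected probes and 34.1% without scaling. The median of all genes moved from -0.006 to 0.12 with spike-in scaling for *miR-139-5p*, and from -0.13 to 0.01 with detected probes and -0.34 without scaling for *miR-139-3p*. Between the miRNAs it moved from -0.11 to 0.05 with detected probes and -0.25 without scaling. Under each of these scalings *EGR1* stayed above 2.4 on the log2 scale in both comparisons with mock.

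**Figure D3:**
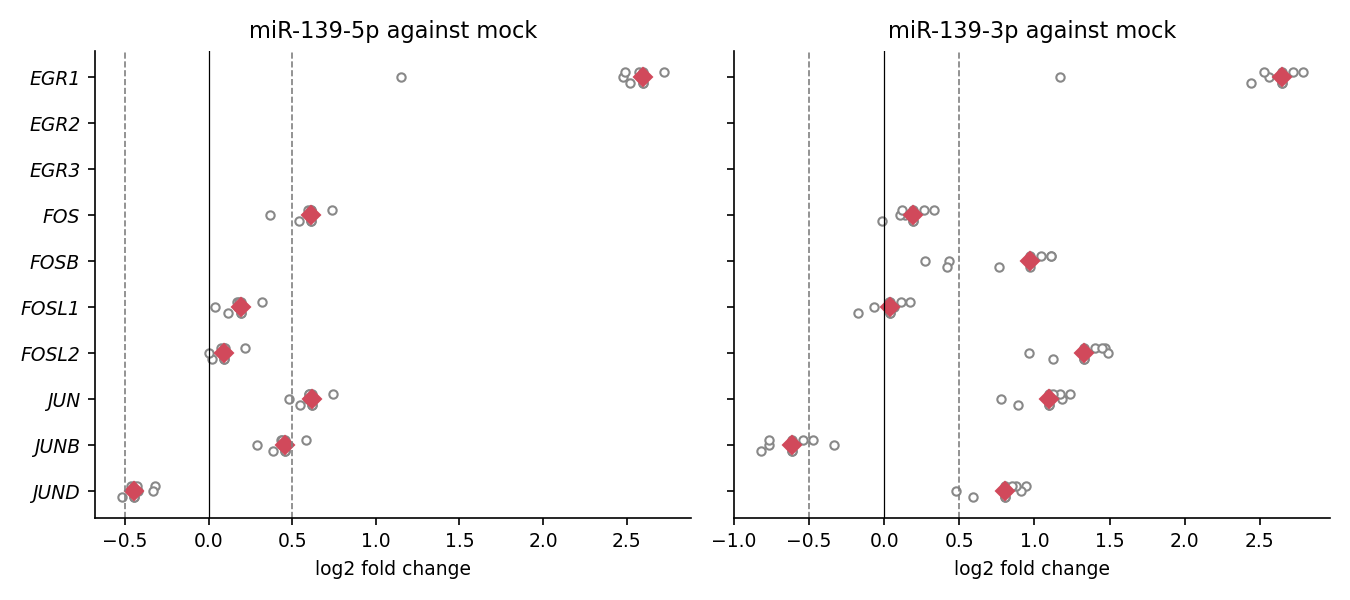
Log2 fold change (horizontal axis) of each member against mock with *miR-139-5p* (left) and *miR-139-3p* (right). Red diamonds are the values given in the text, open grey circles the same value under each alternative processing, and dashed lines mark 0.5 and -0.5. The lowest circle of *EGR1*, at 1.15 and 1.17, is the one with normexp.

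Other early response genes were set beside the members. The list of other early transcription factors, with the IER genes, held 16. With *miR-139-5p* against mock 14 had a value, of which 4 were above 0.5 and 0 below -0.5, with a median of 0.22. The highest were the orphan nuclear receptors *NR4A2* at 1.44 and *NR4A3* at 1.19 and the zinc finger gene *KLF10* at 0.79, and the lowest were *MAFF* at -0.40, *MYC* at -0.16 and *KLF2* at -0.15. With *miR-139-3p* against mock 15 had a value, 7 above and 3 below, with a median of 0.37. Of those measured on both arrays *NR4A2* at 1.66, the small MAF gene *MAFF* at 1.58 and *KLF10* at 1.34 were the highest, and *KLF2* at -0.98, *IER5* at -0.95 and *KLF4* at -0.89 the lowest. The 2 probes of *NR4A2* differed by an SD of 0.77 with *miR-139-5p* and of 0.96 with *miR-139-3p*, so its place as the highest rests on 1 of them. *NR4A1*, named after its value was seen, had a bound of 2.43.

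Early response genes that do not encode transcription factors made a list of 26. With *miR-139-5p*, 22 had a value, 3 above and 2 below the threshold, with a median of 0.11. The highest were *DUSP5* at 0.65 and *DUSP1* at 0.61, phosphatases that inactivate MAP kinases, and *ZFP36L1* at 0.55, which encodes an mRNA decay factor. The lowest were the kinase gene *PLK2* at -0.66, *CCN2* at -0.52 and *ZFP36L2* at -0.31. With *miR-139-3p*, 24 had a value, 11 above and 7 below, with a median of 0.34. Of those measured on both arrays the highest were *BTG2* at 2.75 and *GADD45A* at 1.79, both growth arrest genes known also as p53 targets, and *NFKBIA* at 1.60, the inhibitor of NF-kappaB. The kinase gene *SGK1* at -2.23, *DUSP5* at -1.06 and *ZFP36L2* at -0.96 were the lowest. *ARC*, also named after its value was seen, had a bound of 3.37. *DUSP5* thus lay above the threshold with *miR-139-5p* and below it with *miR-139-3p*, and *CCN2* and *PLK2*, at 1.47 and 0.86 with *miR-139-3p*, crossed the other way.

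The genes upstream of the members, from EGFR and RAS through the MAP kinases to the factors at the promoters, made a list of 23. With *miR-139-5p*, 21 had a value, 2 above and 1 below the threshold, with a median of -0.001. *NRAS* at 0.85, *MAPK9* at 0.52 and *BRAF* at 0.45 were the highest, and the ribosomal S6 kinase gene *RPS6KA1* at -1.11, *MAPK3* at -0.48 and *RPS6KA3* at -0.48 the lowest. With *miR-139-3p*, 22 had a value, 0 above and 7 below, with a median of -0.21. Among the lowest measured on both arrays were *MAPK3*, which encodes ERK1, at -1.23 and *CREB1* at -1.02, and the highest were *MAPK8*, which encodes JNK1, at 0.45, *MRTFB* at 0.41 and *HRAS* at 0.25. *ELK1*, again named after its value was seen, was at -2.76 by the scaled ratio of its spots. This is not a floor, because its dim spot with *miR-139-3p* read 4.33. The lowest signal well above background on that array was 4.32. Genes of ERK feedback numbered 8, with 3 above and 1 below with *miR-139-5p* and 2 above and 2 below with *miR-139-3p*, and with medians of 0.29 and 0.08. The highest was *DUSP6*, an ERK phosphatase, at 0.86 and 1.47.

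Other dimer partners of AP-1 numbered 12. With *miR-139-5p* 11 had a value, 2 above and 2 below, with a median of 0.02, from *JDP2* at -0.77, *BATF2* at -0.53 and *MAFF* at -0.40 to *MAFK* at 0.30, *ATF7* at 0.33 and *ATF3* at 0.40 among those measured on both arrays. With *miR-139-3p* 11 had a value, 4 above and 4 below, with a median of -0.34. *MAFF* at 1.58 and *ATF3*, a stress-induced factor, at 1.29 were among the highest, and *BATF3* at -1.18, *ATF7* at -0.81 and *BATF2* at -0.69 the lowest. The probes of *ATF3* differed by an SD of 0.35 with *miR-139-5p* and of 0.69 with *miR-139-3p* against mock. The EGR corepressors *NAB1* and *NAB2*, which bind EGR proteins and damp their activity, were at 0.12 and 0.18 with *miR-139-5p*, and at -0.67 and 0.43 with *miR-139-3p*.

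Of 16 genes known as targets of AP-1 or EGR proteins, 12 had a value in each comparison. With *miR-139-5p* 0 were above and 3 below the threshold, with a median of -0.05. The lowest were *HMOX1*, which encodes heme oxygenase, at -2.74, *PDGFB* at -0.89 and *TGFB1* at -0.52, and the highest *PLAUR* at 0.25, *TIMP1* at 0.17 and *CCND1* at 0.11. With *miR-139-3p* 1 was above and 7 below, with a median of -0.55. The growth factor genes *PDGFB* at -1.43 and *VEGFA* at -1.02 were among the lowest, and *LIF* at 0.85, *MMP9* at 0.33 and *HMOX1* at 0.29 the highest.

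**Figure D4:**
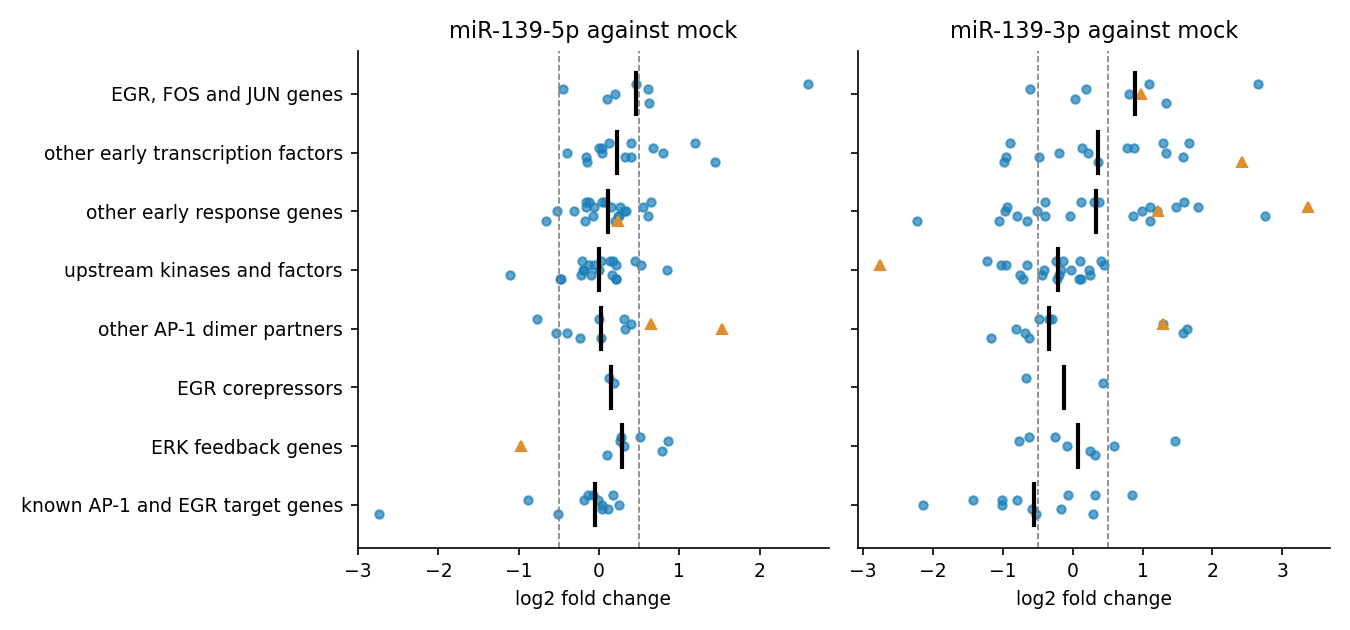
Log2 fold change (horizontal axis) of the members and of 7 other gene lists against mock, with *miR-139-5p* (left) and *miR-139-3p* (right). Circles are genes measured on both arrays. Triangles are genes set against an array where they were dim, as a bound or a ratio of spots. Vertical black lines are list medians and dashed lines mark 0.5 and -0.5. The members' median lies at 0.46 and 0.89, and that of the known target genes at -0.05 and -0.55.

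Among 12321 protein-coding genes well above background on all 3 arrays, the genes nearest to a member were found by the Euclidean distance over its log2 fold changes against mock with both miRNAs. Nearest to *EGR1* were *PLAG1* at 2.28 and 2.55, *LTK* at 2.22 and 3.10, and *SLC2A14* at 1.95 and 2.55, at distances of 0.33, 0.59 and 0.66. Nearest to *FOS* were *CWC22*, *PFKFB4* and *IL6ST*, at distances from 0.011 to 0.030. *JUN* was nearest to *ZDBF2*, *LATS2* and *RIN1*, at distances from 0.049 to 0.055. Both coordinates hold the mock array, and the distances describe 3 arrays.

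Promoter sequences of RefSeq, in windows of 300 bases around the start of a gene, were used for 8 of the 10 members. Those of *EGR3* and *FOSL1* were not searched, and nothing is read from their absence here. Windows were searched on both strands for the CRE (TGACGTCA), the AP-1 site (TGANTCA), the EGR site (GCGNGGGCG), the CArG box, which is the site of SRF, and TATAAA, which can lie within a CArG box. Of 35116 windows of the same length, 1.85% held the CRE, 7.71% the AP-1 site, 9.43% the EGR site, 1.29% the CArG box and 11.5% TATAAA. The *EGR1* window held 2 CArG boxes and 1 EGR site. Over the 3 windows of *EGR2* there were 1 CArG box and 1 EGR site. *FOSL2* held the AP-1 site, *JUND* the CRE, and *FOS*, *FOSB* and *JUNB* TATAAA. *JUN* held none of these letters in its window. A match is a description of the sequence and not a site in use.

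The windows of *EGR1* and *JUN*, which were above 0.5 on the log2 scale against mock with each miRNA, and of *JUNB*, which lay on either side of 0, are shown 5′ to 3′ along the gene with matches in capitals. They lie at chr5:138465229-138465528 (plus strand), chr1:58783998-58784297 (minus strand) and chr19:12791236-12791535 (plus strand) of GRCh38.p14.
EGR1: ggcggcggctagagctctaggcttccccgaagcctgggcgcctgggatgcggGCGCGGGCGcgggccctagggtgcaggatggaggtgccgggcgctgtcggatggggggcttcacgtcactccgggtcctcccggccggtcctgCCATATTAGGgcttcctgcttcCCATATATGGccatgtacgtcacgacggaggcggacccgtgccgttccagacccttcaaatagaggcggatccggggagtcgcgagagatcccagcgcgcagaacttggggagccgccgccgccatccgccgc
JUN: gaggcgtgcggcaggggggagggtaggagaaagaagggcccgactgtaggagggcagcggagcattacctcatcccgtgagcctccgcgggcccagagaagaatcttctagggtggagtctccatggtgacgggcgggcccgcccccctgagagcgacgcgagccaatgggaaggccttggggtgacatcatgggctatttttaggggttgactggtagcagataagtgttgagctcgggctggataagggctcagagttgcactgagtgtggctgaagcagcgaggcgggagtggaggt
JUNB: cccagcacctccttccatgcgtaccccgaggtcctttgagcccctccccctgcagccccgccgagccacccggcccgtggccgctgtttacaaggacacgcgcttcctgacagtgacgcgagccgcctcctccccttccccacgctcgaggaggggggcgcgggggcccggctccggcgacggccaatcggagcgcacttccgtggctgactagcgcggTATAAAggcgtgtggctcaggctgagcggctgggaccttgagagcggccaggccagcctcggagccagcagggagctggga

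The cell line was checked against markers of other cell types. The 9 markers of epithelial cells and of A549 were all well above background on all 3 arrays, with a summed signal of 217600 in mock, 177320 after *miR-139-5p* and 127450 after *miR-139-3p*. The sums add spots of different probes and rest on a few of them, with the largest part from *KRT18* in mock and with *miR-139-3p*, and from *AKR1B10* with *miR-139-5p*. The median log2 fold change of the 9 genes with *miR-139-3p* against mock was -0.06, with 4 below -0.5 and 1 above 0.5. *EPCAM* at 0.97, *CDH1* at 0.36 and *KRT19* at 0.18 were the highest and *AKR1B10* at -1.43, *KRT18* at -0.84 and *KRT8* at -0.74 the lowest. With *miR-139-5p* the median was -0.31, and 4 of the 9 were below -0.5 and 0 above 0.5. *KRT8* at -0.85, *KRT18* at -0.77 and *CDH1* at -0.54 were the lowest, and *AKR1B10* at 0.31 and *EPCAM* at 0.17 the highest. Of 4 leukocyte markers 2, 2 and 3 were well above background in the same order, with sums of 307.8, 319.1 and 93.0, mostly from *CD14*. With *miR-139-3p* against mock *CD14* was at -1.98 and *PTPRC* at 1.26, while *CD3E* had a bound of 0.44. Of 3 endothelial markers 2, 1 and 2 were, with sums of 22.6, 18.8 and 37.4, the largest part from *CDH5*, with *PECAM1* above background on no array. *CDH5* was at 1.00 and *VWF* at 1.05 with *miR-139-3p* against mock. Of 3 fibroblast markers 2 were on each array, with sums of 48.1, 109.5 and 35.2, mostly from *COL1A1*, and *COL3A1* was so on none. With *miR-139-3p* against mock *COL1A1* was at -0.61 and *PDGFRB* at 0.94, and with *miR-139-5p* they were at 1.41 and 0.06. The part of these differences in the values of the members was not tested.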

How the data were processed

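Total RNA of A549 cells was labelled with Cy3 and hybridised to 3 Agilent arrays, 1 for each condition. Spot by spot, the authors deposited an intensity read by Feature Extraction 12.1.1.1, background-subtracted and not normalized between arrays. The deposited log2 table matched a quantile normalization of these signals (within 0.1 for 99.0%, 100.0% and 96.7% of 58201 probes, with a column median of 2.21) and served as an alternative.

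The log2 of each processed signal minus that of the array's 75th percentile over non-control spots was computed. Spots with any of the 4 Feature Extraction outlier flags were omitted (614 in mock, 935 with *miR-139-5p*, 1526 with *miR-139-3p*). Spots of a probe were averaged, and a probe was well above background where at least 50% of its spots were. Of a gene's probes, those passing on both arrays of a comparison were averaged. Where none did, a bound or a ratio with a dim spot was given. Genes were named through RefSeq (GRCh38.p14), with 24751 of 25277 probes with an NM accession matched; of the lists, *RHOB* and *ELK3* had no matched probe.

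By share of spots well above background, 49.9%, 48.1% and 53.1% of 60901 spots on the 3 arrays could be read, and 0 were saturated. As there was 1 array per condition, values carry no test and no p-value. Members and gene lists were chosen with earlier results of these data known, and the lists were compiled from general knowledge. All members were named, with the 3 lowest and 3 highest genes of each list (for ERK feedback the highest only, and for cell type markers those that the sums or the spread rest on, and those on no array) in each comparison with mock among those measured on both arrays, and the 3 nearest genes to *EGR1*, *FOS* and *JUN*; 4 list genes are not reported here by name. Alternatives numbered 12 and covered scaling, background correction (normexp with an offset of 50 on median spot signals), probe choice, dim probes, outlier spots, the threshold and the deposited values; 1, omitting only the feature outlier flags, was added after seeing the data. The steps were tested on simulated data made from copies of the mock array. No gene there was well above background on 1 array only, so the rule for bounds and dim spots was not tested. Python 3.11.15 (numpy 2.4.6, pandas 2.3.3, matplotlib 3.10.9) and R 4.3.3 (limma 3.58.1) were used.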

Additional observations from a re-analysis of the deposited data

How the results depend on the processing

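No paired analysis was possible because each condition had 1 array and the results come from no test. In 11 alternatives at the same threshold, *EGR1* stayed above it against mock for both miRNAs (*miR-139-5p*, 1.15 to 2.72, and *miR-139-3p*, 1.17 to 2.79), and so did *FOSL2* (0.96 to 1.49) and *JUN* (0.78 to 1.23) with *miR-139-3p*. Each of these genes had 1 unflagged spot, well above background on every array. The alternatives for probe choice, dim probes, bounds and outlier spots therefore left their values unchanged by construction. Only those for scaling, background correction and the deposited values could move them. Past the threshold against mock, normexp left 1 member after *miR-139-5p* and 3 after *miR-139-3p*, with medians of 0.29 and 0.37; its offset of 50 pulls fold changes of dim spots toward 0 by construction. A threshold of 1 left 1 and 3, as a stricter threshold does by construction. Of the other values of single genes and lists, 4183 moved by less than the SD typical of probes for the same gene. By more than this, 66 moved away from 0, 215 toward it and 20 across it, 301 together, and 0 called values changed sign. The 4183 values include some that could not move, such as that of a gene read by 1 probe under another probe choice.

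Of protein-coding genes with *miR-139-5p*, 1401 were above and 1605 below the threshold in the values reported, against 2159 and 1025 with spike-in scaling, 467 and 605 with normexp, 2110 above without a filter on dim probes, and 244 and 312 at a threshold of 1. With *miR-139-3p* against mock 3111 were above and 4131 below, against 1186 above with normexp, and 1396 and 1754 at a threshold of 1. Between the miRNAs 3094 were above and 4116 below, against 1261 above with normexp, and 1486 and 1786 at a threshold of 1. Signal over background limits *EGR2*, *EGR3* and *FOSB*.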
